A study of Mus musculus with 22 samples.

Results

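The genes described here are the secreted and membrane-bound ligands of axon guidance and their receptors: the semaphorins with their plexins and neuropilins, the ephrins with the EphA and EphB receptors, the Slit proteins with the Robo receptors, and the netrins with Dcc and the Unc5 receptors. They were selected by gene symbol, and the families were chosen with earlier results of these data known. Of the 23361 genes in the matrix 69 carried such a symbol, 35 of them ligands and 34 receptors. All 69 were among the 16978 genes tested. Libraries were prepared from microdissected hippocampal CA1 of 22 wild-type females of the Swiss Webster x DBA/C57BL6 F1 cross, 1 library per mouse. The mice either ate ad libitum (AL) or were calorie restricted (CR), with carbohydrates as the part of the diet that was reduced, from young adulthood until they were 5 or 15 months old. There were 5 mice per diet at 5 months and 6 per diet at 15 months. Levels are given as FPKM (fragments per kilobase of transcript, scaled to the number of mapped fragments), a unit that corrects for transcript length, so levels may be compared between genes.

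In the developing brain these ligands attract or repel growing axons. Class 3 semaphorins are secreted and bind neuropilins, which signal through A-type plexins, whereas Sema3e binds Plxnd1 directly. Ephrins sit on the cell surface and signal on contact with Eph receptor tyrosine kinases, Slit proteins repel axons through Robo receptors, and netrins attract them through Dcc or repel them through Unc5 receptors. In the adult hippocampus many of the same proteins are found at synapses, where they act on dendritic spines and synaptic plasticity, and others are found in blood vessels.

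The libraries resembled each other in scale, with a median FPKM of 2.51 to 3.10 per library and 18281 to 19175 genes above 0. They did not resemble each other in regional markers. A region score, the mean log2 level of 9 neocortex and subiculum markers minus that of 6 CA1 pyramidal neuron markers, ranged from -4.43 to -2.71 in AL mice at 5 months and from -4.14 to -3.29 in CR mice at 5 months. It was higher in every AL library at 15 months, at -1.86 to 0.16, with the highest scores in replicates 4 and 5. In CR mice at 15 months it ranged from -3.51 to -0.78, and replicates 1 (-3.18) and 3 (-3.51) lay inside the 5 month range. With age in AL mice 4 of the 6 CA1 markers fell and 5 of the 9 neocortex and subiculum markers rose, while 1 fell. The summed level of the CA1 markers was 232 to 507 FPKM in AL mice at 5 months, 180 to 278 at 15 months and 96.1 to 436 in CR mice at 15 months, and that of the neocortex and subiculum markers was 70.7 to 98.2, 102 to 140 and 62.7 to 167 FPKM. Of the 9 choroid plexus markers 6 fell with age in AL mice, from a summed 39.8 to 363 FPKM to 3.96 to 26.2. In the other lists, 2 of 4 CA2, 2 of 4 CA3, 2 of 6 dentate gyrus, 1 of 6 oligodendrocyte and 1 of 6 microglia markers fell, 1 of 6 thalamus markers rose, and 1 astrocyte marker rose while 1 fell. None of the interneuron, endothelium, mural cell, oligodendrocyte precursor or fibroblast markers was called. With age in CR mice 8 of 9 choroid plexus and 2 of 4 CA2 markers fell and no other marker was called, and none was called between the diets. No marker of these lists was at 0 in every library of a group. In such bulk tissue, fewer cells of a type and less RNA per cell cannot be told apart.

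Nearly all of these ligand and receptor genes were transcribed in adult CA1. A mean of at least 1 FPKM over the 22 libraries was found for 66 of 69, and of at least 10 FPKM for 29. The median gene stood at 7.75 FPKM, beside 8.91 FPKM over all genes tested. The highest means belonged to Epha4, an EphA receptor of dendritic spines, at 58.9 FPKM, to the ephrin gene Efna3 at 49.6 and to the netrin receptor gene Unc5a at 48.4. Next came the ephrin gene Efnb3 (46.1 FPKM), the transmembrane semaphorin Sema6b (43.9), the membrane-anchored semaphorin Sema7a (40.3) and Slit1 (40.2). Only Epha1 (0.196 FPKM), Epha2 (0.294) and Efna4 (0.464) averaged below 1 FPKM, and no library was at 0 for any of the 69.

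**Figure D1:**
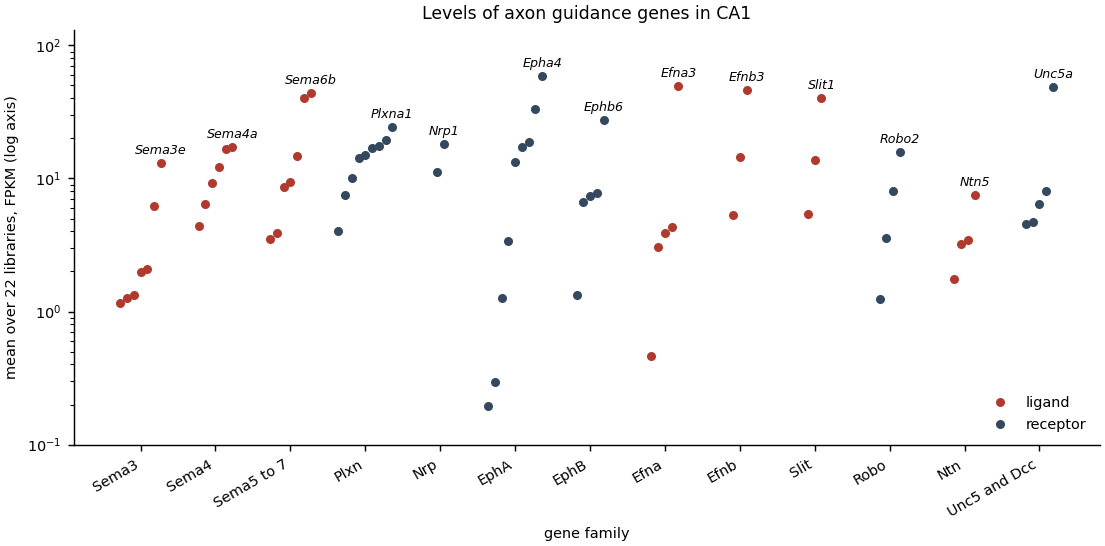
Mean FPKM over the 22 libraries (log axis) of each of the 69 genes, grouped by family, with ligands in red and receptors in dark blue; the gene with the highest mean in each family is named. The genes span from 0.196 FPKM (Epha1) to 58.9 FPKM (Epha4), and every family holds at least 1 gene above 7 FPKM.

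The first comparison asked what normal aging does to these genes, with the aged AL group set against the young AL group. With age 24 of the 69 passed the limma test at a Benjamini-Hochberg adjusted p under 0.05 across all genes (34.8%, beside 20.6% of all genes tested), 13 of them higher (all genes, 10.7%) and 11 lower (9.97%). The values of AL libraries at the 2 ages did not overlap for 22 of the 69 (all genes, 14.0%). The largest increases were in Epha8, Sema3a, Plxnd1 and Efna5 and the largest decreases in Sema3e, Epha6, Epha7 and Slit1. The median log2 fold change was 0.03, and its median size was 0.42, beside 0.20 over all genes tested. When the region score was added to the model as a covariate, 0 of the 69 were called, as were 0 of all genes. An unadjusted p under 0.05 was found for 8 of the 69, and the share over all genes was not determined. In AL mice the score did not overlap between the ages, so age and the regional markers cannot be told apart, and the standard errors were larger in that fit. The fold changes of the 24 genes kept their sign, but 19 became more than 1.5 times smaller. Differences between genes in this shift were not tested. The log2 fold change went from 1.26 to 0.09 ± 0.47 (SE) for Unc5d and from -0.62 to -0.10 ± 0.27 for Plxna4. Efna3 went from -0.55 to -0.12 ± 0.12, Slit1 from -1.08 to -0.23 ± 0.40 and Plxna1 from -0.84 to -0.20 ± 0.20. Plxnd1 went from 1.90 to 1.17 ± 0.42, Epha8 from 2.06 to 1.27 ± 0.47 and Sema3e from -1.86 to -1.12 ± 0.46. They were 1.62, 1.62 and 1.65 times smaller, just past the limit of 1.5. The other 5 of the 24 stayed within 1.5 times. These went from 0.57 to 0.49 ± 0.25 (SE) for Sema4a and from 0.47 to 0.43 ± 0.23 for Sema4c. Sema4f went from 0.24 to 0.35 ± 0.12, Ntn4 from 0.72 to 0.63 ± 0.28 and Efna4 from -1.02 to -0.81 ± 0.36. The unadjusted limma p in that fit was 0.012 for Plxnd1, 0.0146 for Epha8 and 0.0238 for Sema3e. It was 0.062 for Sema4a, 0.0807 for Sema4c, 0.0107 for Sema4f, 0.0332 for Ntn4 and 0.0368 for Efna4.

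Among the class 3 semaphorins, Sema3e fell most. It was 16.9, 17.5, 18.0, 21.3 and 21.7 FPKM in the AL libraries at 5 months. At 15 months it had a low of 4.03, a median of 5.03 and a high of 7.52 FPKM, so that no aged AL library reached the lowest young one. The log2 fold change was -1.86 ± 0.30 (SE) with a limma adjusted p of 0.000566 and an exact permutation p of 0.00216, the smallest that 5 against 6 libraries allow. Plxnd1, which encodes the receptor that Sema3e binds, moved the other way. It was 4.24, 4.45, 4.56, 4.92 and 7.14 FPKM at 5 months and had a low of 14.6, a median of 19.2 and a high of 25.8 FPKM at 15 months, again without overlap. Its log2 fold change was 1.90 ± 0.28 (SE), with a limma adjusted p of 0.000377 and an exact permutation p of 0.00216.

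Sema3a, the prototypic repellent semaphorin, was low in young CA1, at 0.539, 0.674, 0.685, 0.733 and 1.02 FPKM in AL mice. In aged AL mice its lowest, median and highest values were 1.47, 3.10 and 7.49 FPKM, the top values being 7.49 in replicate 4 and 5.77 in replicate 5, the same libraries that had the highest region scores. The groups did not overlap, and the log2 fold change was 2.05 ± 0.38 (SE) with a limma adjusted p of 0.00131. Sema3f, which signals through Nrp2 and Plxna3, rose as well (log2 fold change 1.80, limma adjusted p = 0.0266), with a range of 0.746 to 1.66 FPKM at 5 months and 2.72 to 4.30 FPKM at 15 months. Its adjusted p reached 0.0598 when single young AL libraries were left out, the call being lost without replicate 1, 2, 3 or 4. The other 4 class 3 genes, Sema3b, Sema3c, Sema3d and Sema3g, were not called, with log2 fold changes of -0.15 to 0.14.

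The 5′ flanks of the pair with opposite changes, Sema3e and Plxnd1, and of Sema3a are shown because these are the semaphorin and plexin genes with the largest changes. Each sequence is the 250 bases before a RefSeq transcript start on GRCm38.p6, 5′ to 3′ on the strand of the gene, at chr5:14025026-14025275 (plus strand) for Sema3e, chr6:115995006-115995255 (minus strand) for Plxnd1 and chr5:13396534-13396783 (plus strand) for Sema3a. Capitals mark the GC box GGGCGG or its complement CCGCCC, the motif searched on both strands.
Sema3e: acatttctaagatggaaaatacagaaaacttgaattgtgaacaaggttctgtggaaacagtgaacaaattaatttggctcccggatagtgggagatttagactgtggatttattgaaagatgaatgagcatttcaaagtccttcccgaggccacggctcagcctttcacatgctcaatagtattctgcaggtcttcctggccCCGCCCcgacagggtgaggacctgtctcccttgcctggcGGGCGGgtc
Plxnd1: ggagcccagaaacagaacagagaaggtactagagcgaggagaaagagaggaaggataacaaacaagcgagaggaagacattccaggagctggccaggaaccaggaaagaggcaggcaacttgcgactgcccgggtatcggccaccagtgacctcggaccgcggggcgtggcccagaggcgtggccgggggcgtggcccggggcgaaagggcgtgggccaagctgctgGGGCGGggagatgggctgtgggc
Sema3a: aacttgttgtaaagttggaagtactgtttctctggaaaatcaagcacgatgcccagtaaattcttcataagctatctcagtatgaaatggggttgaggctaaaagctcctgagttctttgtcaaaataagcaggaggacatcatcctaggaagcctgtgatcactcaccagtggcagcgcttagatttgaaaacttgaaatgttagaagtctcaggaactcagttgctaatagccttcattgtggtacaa
Sema3e carried 2 GC boxes, Plxnd1 1 and Sema3a none, and their GC contents were 48.0%, 64.8% and 40.8%. The Sema3a window lies before a start inside the gene, which extends over chr5:13125414-13602565. A GC box was present in 70.7% of the 75 windows found for 59 of the 69 genes, beside 32.7% of all 32851 windows in the RefSeq table. The median GC content was also higher, at 64.4% beside 52.4% over all windows. The windows of that table were not limited to the genes tested here. The part of GC content or of this choice of windows in the difference in GC boxes was not tested. A match in such a window is a description and not a known binding site.

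Of the 6 transmembrane class 4 semaphorins 3 rose, by less than the class 3 genes. Sema4a, which is better known from immune cells, was the highest of them at a mean of 17.3 FPKM. It was 13.8, 14.1, 14.3, 15.5 and 16.0 FPKM at 5 months and had a low of 18.7, a median of 22.1 and a high of 24.3 FPKM at 15 months. Every aged AL library was above every young one, with a log2 fold change of 0.57 ± 0.15 (SE) and a limma adjusted p of 0.0110. Sema4c (0.47) and Sema4f (0.24) rose by less on the log2 scale, and Sema4b, Sema4d and Sema4g were not called. Sema4f was no longer called without any 1 of 6 of the AL libraries, with an adjusted p of up to 0.0838, and the call of Sema4c was lost without AL 5 months replicate 1 (0.0561).

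None of the 7 semaphorins of classes 5 to 7 was called. Sema6b and Sema7a were among the most abundant genes, and the other 5 averaged 3.52 FPKM (Sema6a) to 14.7 FPKM (Sema6d). Sema6b was 42.8, 43.0, 44.5, 46.0 and 47.4 FPKM in young AL mice and had a low of 35.1, a median of 45.3 and a high of 51.2 FPKM in aged ones (log2 fold change -0.05 ± 0.10 (SE)). Sema6a had the smallest p of the 7. Its 5 young values were 2.55, 3.13, 3.13, 3.35 and 3.48 FPKM and the aged ones had a low of 3.71, a median of 4.05 and a high of 4.92. These groups did not overlap (exact permutation p = 0.00216), yet the limma adjusted p was 0.114 with a log2 fold change of 0.40 ± 0.18 (SE). Sema5a varied widely within groups, from 5.93 to 17.0 FPKM in young AL mice and from 3.21 to 28.3 FPKM in aged CR mice, the latter high being in CR 15 months replicate 3, which also had the highest summed level of the 6 dentate gyrus markers (133 FPKM).

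Of the 9 plexins, the receptors that carry semaphorin signals into the cell, 2 rose and 2 fell. Plxna3 rose together with Plxnd1 (log2 fold change 0.72, limma adjusted p = 0.00714). Plxna1, the most abundant plexin, fell. It was 24.2, 26.7, 31.0, 31.1 and 35.4 FPKM at 5 months and had a low of 14.1, a median of 15.3 and a high of 20.5 FPKM at 15 months, with no overlap (log2 fold change -0.84 ± 0.16 (SE), limma adjusted p = 0.00152). An antisense gene shares 10.7% of the exon bases of Plxna1, and the library kit does not keep the strand, so reads of the 2 cannot be told apart there. Plxna4, a receptor for Sema3a complexes, fell by 0.62 on the log2 scale (adjusted p = 0.0230), a call lost without AL 15 months replicate 4 or AL 5 months replicate 1 (adjusted p up to 0.0619). The other 5 plexins were not called.

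Nrp1, the ligand-binding partner of plexins in Sema3a reception, was 19.0, 19.7, 20.3, 25.5 and 26.7 FPKM in young AL mice. In aged AL mice it had a low of 5.20, a median of 13.2 and a high of 15.2 FPKM, and the low values, 5.20 and 6.85 FPKM, were again those of replicates 4 and 5. The groups did not overlap (log2 fold change -1.04 ± 0.29 (SE), limma adjusted p = 0.0154). With replicates 4 and 5 both omitted, a choice made after seeing the data, Nrp1 was no longer called, nor were Sema3f, Sema4c, Plxna4, Efnb3 and Unc5d. In that fit 22 of the 69 genes were called, some of which were not called with all libraries. Nrp2, the receptor for Sema3f, ranged from 7.63 to 15.8 FPKM in young and from 3.67 to 19.5 FPKM in aged AL mice and was not called.

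**Figure D2:**
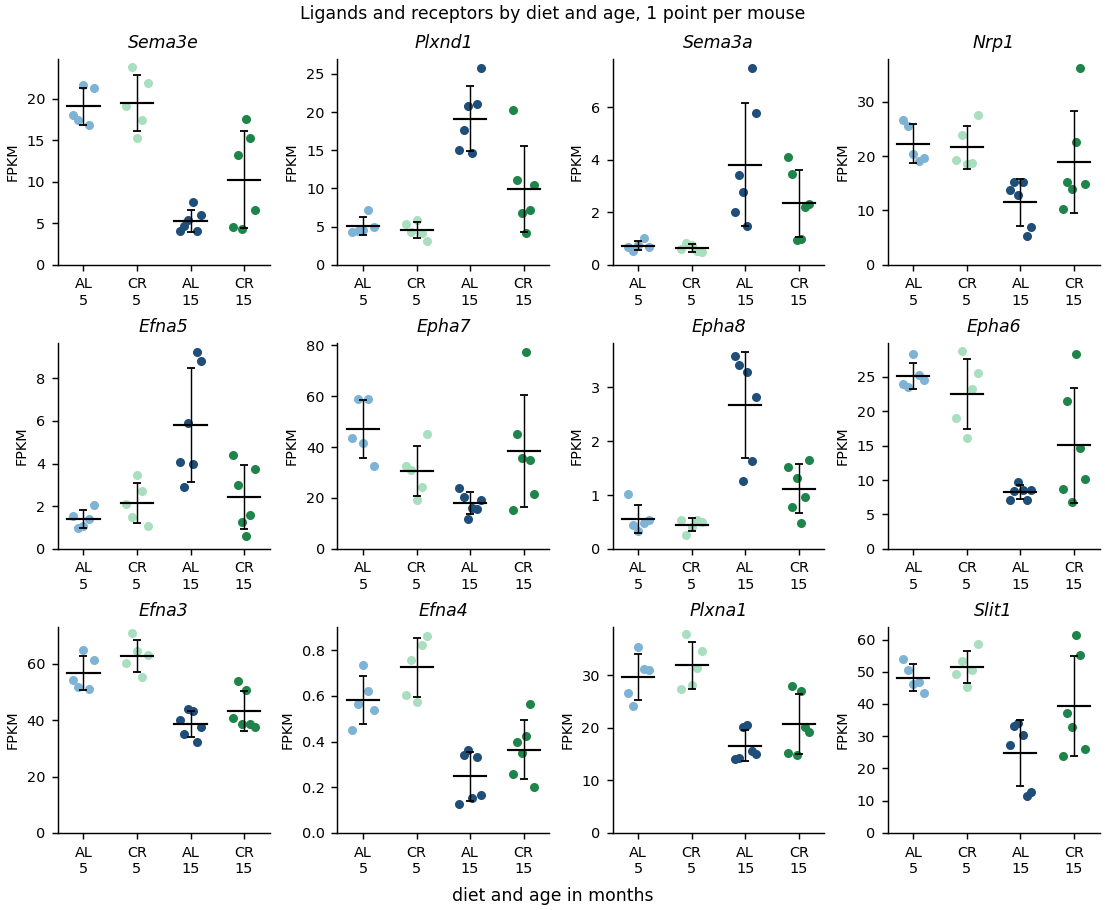
FPKM of 12 ligand and receptor genes by diet and age in months, 1 point per mouse (5 per diet at 5 months, 6 per diet at 15 months); lines are group means and bars are 1 SD. Sema3e, Epha6, Plxna1 and Efna3 lie lower in every aged AL mouse than in any young AL mouse and Plxnd1, Sema3a, Efna5 and Epha8 higher, while aged CR mice spread between the 2 for most of these genes.

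Of the 9 EphA receptors 1 rose and 3 fell, and of the 5 ephrin-A genes, their ligands, 2 rose and 2 fell. Epha8 rose most of all 69, from 0.325, 0.444, 0.474, 0.530 and 1.01 FPKM to a low of 1.27, a median of 3.06 and a high of 3.58 FPKM, without overlap but from a low level (log2 fold change 2.06 ± 0.31 (SE), limma adjusted p = 0.000403). Epha4 was 72.4, 72.4, 75.1, 82.0 and 89.6 FPKM in young AL mice, and in aged ones its low, median and high were 23.6, 38.8 and 61.1 FPKM (log2 fold change -1.02 ± 0.28 (SE), limma adjusted p = 0.0158). Here too, the highest aged value was below the lowest young one. Epha6 (log2 fold change -1.61) and Epha7 (-1.40), receptors for A-type ephrins, fell with it, from ranges of 23.5 to 28.4 and 32.6 to 59.0 FPKM to ranges of 7.04 to 9.76 and 11.6 to 24.1 FPKM. Epha1, Epha2, Epha3, Epha5 and Epha10 were not called.

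The ephrin-A genes divided. Efna5, a high-affinity ligand of several EphA receptors, rose from 0.967 to 2.07 FPKM across young AL mice to a low of 2.89, a median of 5.00 and a high of 9.22 FPKM in aged ones, with 9.22 and 8.81 FPKM in replicates 4 and 5 (log2 fold change 1.89, limma adjusted p = 0.00419). Efna3, the most abundant ephrin-A, fell. Its young values were 51.2, 51.9, 54.4, 61.4 and 64.9 FPKM and the aged ones had a low of 32.4, a median of 38.7 and a high of 43.8 FPKM, without overlap (log2 fold change -0.55 ± 0.10 (SE), limma adjusted p = 0.00134).

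Efna4 was low throughout and fell too, from 0.449, 0.540, 0.564, 0.623 and 0.733 FPKM to a low of 0.128, a median of 0.250 and a high of 0.361 FPKM (log2 fold change -1.02 ± 0.22 (SE), limma adjusted p = 0.00323). These groups did not overlap either. Efna1, Efna3 and Efna4 are neighbors on chromosome 3, all within 66296 bases on GRCm38 with 10425 bases between Efna3 and Efna4, yet Efna1 rose (log2 fold change 0.61, limma adjusted p = 0.0354). Efna1 was called in 15 of 22 fits that each left out 1 library, with an adjusted p of up to 0.115. Every fit that lost the call left out a library of the AL groups compared. Antisense genes share 14.6% of the exon bases of Efna3 and 10.5% of those of Efna4.

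EphB receptors, which act at excitatory synapses, gave no call among 5. Ephb1 had the smallest p. Its young AL values were 5.83, 6.57, 6.90, 7.02 and 8.23 FPKM and the aged ones had a low of 5.98, a median of 10.2 and a high of 12.9 FPKM, with overlap (log2 fold change 0.46 ± 0.18 (SE), limma adjusted p = 0.0683). The kinase-inactive Ephb6, the most abundant, was 24.1, 26.4, 27.0, 28.4 and 29.1 FPKM at 5 months and had a low of 21.3, a median of 28.8 and a high of 40.5 FPKM at 15 months, when its values covered those of the young mice. Of their 3 ligand genes, Efnb3 alone was called. Its young values were 39.6, 51.1, 52.6, 53.7 and 56.9 FPKM and the aged ones had a low of 23.8, a median of 34.0 and a high of 65.7 FPKM, the high belonging to replicate 2 and lying above all young mice (log2 fold change -0.52 ± 0.18 (SE), limma adjusted p = 0.0448, exact permutation p = 0.0693). The call of Efnb3 was kept in only 10 of 22 fits that each left out 1 library, with an adjusted p of up to 0.105. Most of the fits that lost it left out a library of the AL groups compared.

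**Figure D3:**
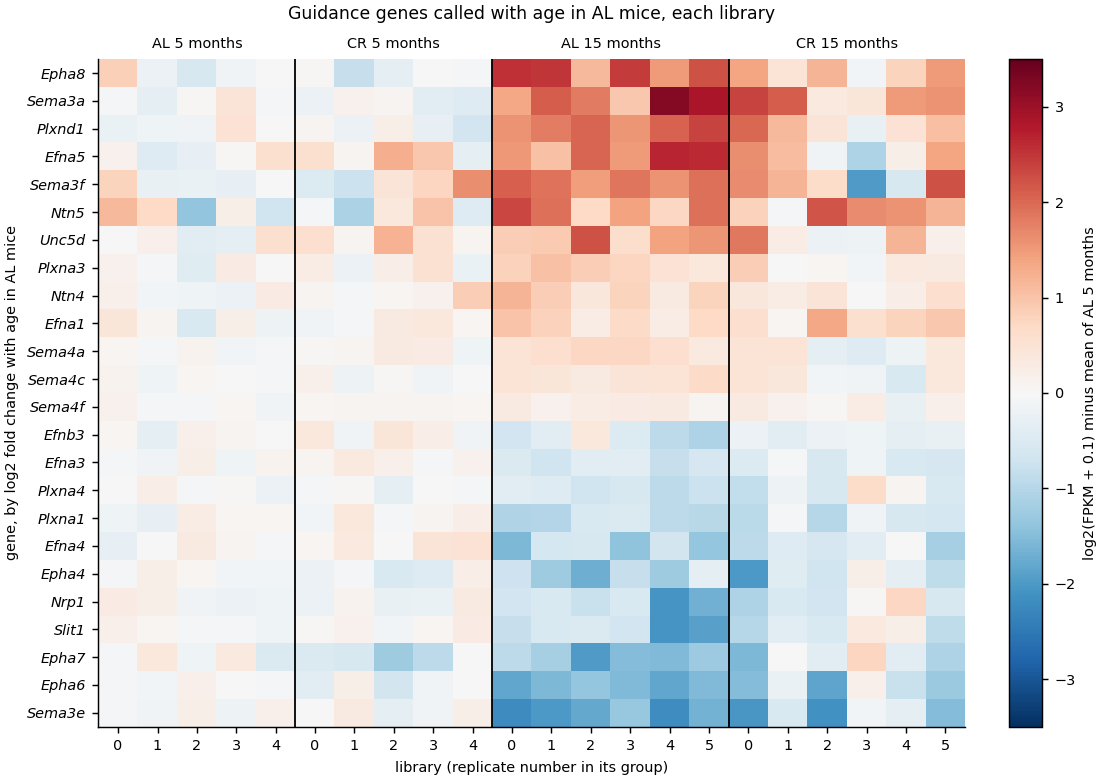
Level of the 24 genes called with age in AL mice in each of the 22 libraries, as log2(FPKM + 0.1) minus the mean of AL mice at 5 months; rows are genes from the largest rise (Epha8, log2 fold change 2.06) to the largest fall (Sema3e, -1.86), and columns are libraries by group and replicate number. In the CR 15 months group, replicate 3 has the colors of the young libraries for most of the genes and replicate 0 those of the aged AL libraries.

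Slit1, a repellent for axons that carry Robo receptors, was 43.3, 46.2, 46.8, 50.5 and 54.0 FPKM in young AL mice. In aged AL mice the low was 11.5, the median 28.8 and the high 34.1 FPKM, with 11.5 and 12.7 FPKM in replicates 4 and 5. No aged library reached the young range (log2 fold change -1.08 ± 0.28 (SE), limma adjusted p = 0.00993), whereas Slit2 (log2 fold change 0.44) and Slit3 (-0.52, limma adjusted p = 0.0554) were not called. None of the 4 Robo receptors was called. Robo2, the most abundant, was 14.2, 16.0, 16.2, 16.9 and 17.1 FPKM and had a low of 11.8, a median of 15.0 and a high of 22.2 FPKM with age, so that the young values lay inside the aged range. Robo1, with the smallest p of the 4, was 6.47, 7.75, 9.07, 10.1 and 10.2 FPKM and had a low of 4.36, a median of 6.93 and a high of 8.0 FPKM (log2 fold change -0.39 ± 0.21 (SE), limma adjusted p = 0.195).

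Of the 4 netrin genes, Ntn4 and Ntn5 rose. Ntn4, a netrin of basement membranes, was 2.28, 2.34, 2.45, 2.95 and 3.20 FPKM in young AL mice and had a low of 3.30, a median of 4.60 and a high of 6.07 FPKM in aged ones (log2 fold change 0.72 ± 0.17 (SE), limma adjusted p = 0.00499). The groups touched closely but did not overlap. Ntn5 was 1.32, 2.18, 4.14, 5.88 and 7.96 FPKM and had a low of 5.82, a median of 11.8 and a high of 18.6 FPKM, with overlap (log2 fold change 1.51 ± 0.47 (SE), limma adjusted p = 0.0277). The call of Ntn5 was lost in 5 of 22 fits that each left out 1 library, with an adjusted p of up to 0.0945. All 5 left out a library of the AL groups compared. Exons of Sec1 on the opposite strand cover 23.4% of the exon bases of Ntn5, so reads of the pair cannot be told apart there.

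Of the netrin receptor genes, Unc5d alone was called. It was 2.78, 2.88, 3.60, 4.16 and 5.41 FPKM and had a low of 5.65, a median of 8.42 and a high of 17.6 FPKM (log2 fold change 1.26 ± 0.35 (SE), limma adjusted p = 0.0145), without overlap. It was no longer called with AL 15 months replicates 4 and 5 both left out. Unc5a, the most abundant, was 41.9, 44.5, 46.7, 47.0 and 48.4 FPKM and had a low of 29.6, a median of 43.2 and a high of 62.5 FPKM (log2 fold change -0.13 ± 0.15 (SE)), the young values lying inside the aged range. Dcc, the attractive netrin receptor, averaged 4.69 FPKM over all libraries and was not called (log2 fold change -0.04), nor were Unc5b and Unc5c.

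The same comparison in CR mice asked how these genes change with age under the restricted diet. In CR mice 5 of the 69 were called (7.25%, beside 3.36% of all genes tested): Sema3a was higher at 15 than at 5 months (all genes higher, 1.10%), and Sema3e, Plxna1, Efna3 and Efna4 were lower (all genes lower, 2.26%). All 5 were called in the same direction in AL mice, whose libraries are separate from these. The share of all genes called in CR mice that were also called in AL mice was not determined. Both comparisons use the same estimate of the spread. The median region score was also higher at 15 months under both diets, going from -3.9 to -1.23 in AL and from -3.58 to -1.74 in CR mice. The CR groups did not overlap for Sema3a, Efna3, Efna4 and Efnb3 (4 genes, 5.80%, beside 3.26% of all genes). An unadjusted p under 0.05 was found for 21 of the 69, beside 18.0% of all genes.

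Efna3 had nearly the same change under both diets. It was 55.4, 60.1, 63.1, 64.5 and 71.0 FPKM in young CR mice and had a low of 37.4, a median of 39.7 and a high of 54.0 FPKM in aged ones, all below the young range (log2 fold change -0.54 ± 0.10 (SE), limma adjusted p = 0.00512). It was the only 1 of the 5 that was called in all 22 fits leaving out a library. Efna4 was 0.575, 0.604, 0.757, 0.824 and 0.863 FPKM in young CR mice and had a low of 0.199, a median of 0.373 and a high of 0.563 FPKM in aged ones (log2 fold change -0.86 ± 0.22 (SE), limma adjusted p = 0.0319). The interaction terms, which measure the difference between the diets in the change with age, were 0.01 ± 0.15 (SE) for Efna3 and 0.16 ± 0.31 for Efna4 on the log2 scale.

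Sema3a rose in CR mice from 0.494, 0.516, 0.610, 0.767 and 0.814 FPKM to a low of 0.927, a median of 2.26 and a high of 4.10 FPKM (log2 fold change 1.55 ± 0.38 (SE), limma adjusted p = 0.0279). The groups did not overlap, and the aged CR lows were 0.927 FPKM in replicate 2 and 0.992 FPKM in replicate 3. Sema3e was 15.3, 17.5, 19.1, 21.9 and 23.8 FPKM in young CR mice and had a low of 4.25, a median of 9.91 and a high of 17.6 FPKM in aged ones (log2 fold change -1.12 ± 0.30 (SE), limma adjusted p = 0.0415). Its aged CR values split, with 13.2, 15.3 and 17.6 FPKM in replicates 1, 4 and 3 and 4.25 to 6.62 FPKM in the rest. Plxna1 was 27.3, 28.2, 31.4, 34.6 and 37.9 FPKM in young CR mice and had a low of 14.8, a median of 19.7 and a high of 28.0 FPKM in aged ones, with a slight overlap (log2 fold change -0.65 ± 0.16 (SE), limma adjusted p = 0.0268). Without 1 library the adjusted p reached 0.0742 for Sema3a, 0.109 for Sema3e, 0.0861 for Plxna1 and 0.0895 for Efna4, and with the region score in the model none of the 5 was called, while Slit2 was (log2 fold change -1.84, limma adjusted p = 0.0348). In that fit the log2 fold changes were 0.89 for Sema3a, -0.67 for Sema3e, -0.26 for Plxna1, -0.28 for Efna3 and -0.73 for Efna4.

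The other receptors described above were not called with age in CR mice. Plxnd1 was 3.11, 4.09, 4.27, 5.27 and 5.79 FPKM in young CR mice and had a median of 8.82 FPKM in aged ones (log2 fold change 0.99 ± 0.28 (SE), limma adjusted p = 0.0573). Epha8 was 0.253, 0.402, 0.497, 0.533 and 0.543 FPKM in young CR mice, with a log2 fold change of 1.10 ± 0.31 (SE) and a limma adjusted p of 0.0587. For both, the aged CR group reached down into the young range. Nrp1 was 18.5, 18.8, 19.2, 23.9 and 27.5 FPKM in young CR mice and had a low of 10.3, a median of 15.1 and a high of 36.3 FPKM in aged ones (-0.30, adjusted p = 0.628). Epha4 was 54.2, 56.8, 67.6, 74.6 and 91.4 FPKM and had a low of 19.2, a median of 52.8 and a high of 89.6 FPKM with age (-0.49, adjusted p = 0.374). The aged CR libraries thus spread more widely than the young ones in both genes. Unc5d was 3.91, 3.94, 5.35, 5.55 and 8.62 FPKM in young CR mice and had a low of 3.15, a median of 4.25 and a high of 13.4 FPKM in aged ones (0.01). Unc5a was 44.4, 56.6, 57.7, 61.8 and 62.7 FPKM and had a low of 40.3, a median of 47.5 and a high of 57.4 FPKM (-0.21).

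Robo1 was 7.35, 9.09, 9.24, 10.5 and 11.1 FPKM in young CR mice and had a low of 4.40, a median of 7.29 and a high of 13.3 FPKM in aged ones (log2 fold change -0.36). Robo2 was 12.8, 12.8, 12.9, 15.5 and 17.1 FPKM and had a low of 11.8, a median of 17.7 and a high of 21.7 FPKM (0.28). Both overlapped between the ages. Ephb1 was 4.55, 4.73, 5.19, 5.56 and 7.07 FPKM in young CR mice and had a low of 6.06, a median of 8.38 and a high of 11.3 FPKM in aged ones (0.61 ± 0.18 (SE), limma adjusted p = 0.0605). Ephb6 was 23.9, 26.0, 26.9, 28.0 and 30.0 FPKM and had a low of 17.1, a median of 25.3 and a high of 31.9 FPKM (-0.14).

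Of the ligands, Slit1 was 45.3, 49.3, 50.6, 53.4 and 58.6 FPKM in young CR mice and had a low of 23.9, a median of 35.0 and a high of 61.3 FPKM in aged ones (log2 fold change -0.47, limma adjusted p = 0.391). Efnb3 was 46.7, 46.7, 59.2, 65.0 and 67.4 FPKM and had a low of 39.3, a median of 42.6 and a high of 45.3 FPKM (-0.42, adjusted p = 0.221). Slit1 overlapped between the ages and Efnb3 did not. Ntn4 was 2.51, 2.76, 2.82, 2.93 and 4.80 FPKM in young CR mice and had a low of 2.67, a median of 3.31 and a high of 4.01 FPKM in aged ones (0.10). Ntn5 was 1.60, 2.59, 3.40, 4.60 and 7.20 FPKM and had a low of 3.48, a median of 9.54 and a high of 16.8 FPKM (1.29 ± 0.47 (SE), adjusted p = 0.142). The groups overlapped in both netrin genes. Sema4a was 13.2, 15.1, 15.8, 17.9 and 18.3 FPKM in young CR mice, with a log2 fold change of -0.05. Sema6b was 41.1, 45.9, 47.5, 48.6 and 50.2 FPKM and had a low of 34.7, a median of 39.4 and a high of 50.7 FPKM (-0.19). Sema6a was 2.70, 2.86, 3.03, 3.38 and 3.60 FPKM and had a low of 1.98, a median of 3.45 and a high of 5.66 FPKM (0.12), and these 3 semaphorins overlapped between the ages too.

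**Figure D4:**
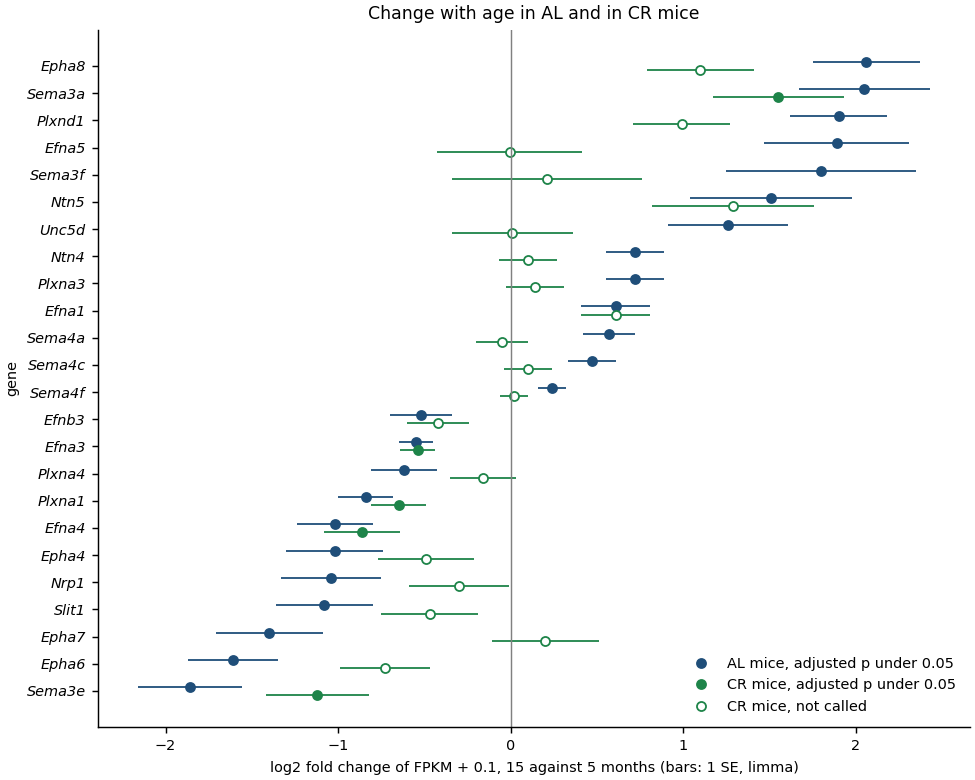
Log2 fold change of FPKM + 0.1 from 5 to 15 months, with bars of 1 SE from limma, in AL mice (blue) and CR mice (green) for the 24 genes called with age in AL mice; filled points passed an adjusted p of 0.05 and open points did not. Efna3 and Efna4 have nearly the same change under both diets, and Efna5 and Unc5d have a change near 0 in CR mice (-0.0046 and 0.01).

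The effect of the diet itself was assessed in mice of the same age. At 15 months, CR against AL, 0 of the 69 were called by limma (beside 0.742% of all genes tested), and 16 had an unadjusted p under 0.05 (23.2%, beside 17.1% of all genes). No gene had groups without overlap (all genes, 0.984%). These aged AL libraries are the same ones used in the age comparison, so the 2 sets of fold changes are not independent. The smallest adjusted p was that of Plxnd1. Its aged CR values were 4.10, 6.78, 7.14, 10.5, 11.1 and 20.2 FPKM beside 14.6 to 25.8 FPKM in aged AL mice, a log2 difference of -1.08 ± 0.27 (SE) with a limma adjusted p of 0.0599 and an exact permutation p of 0.0108. Only CR replicate 0, at 20.2 FPKM, lay inside the AL range.

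Epha8 was next, with a low of 0.483, a median of 1.14 and a high of 1.66 FPKM in aged CR mice and 1.27 to 3.58 FPKM in aged AL mice (log2 difference -1.19 ± 0.30 (SE), limma adjusted p = 0.0628). Sema4a had a low of 10.8, a median of 15.9 and a high of 20.7 FPKM in aged CR mice and 18.7 to 24.3 in aged AL mice (-0.51 ± 0.14 (SE), adjusted p = 0.0885). Efna5 was 0.592 to 4.39 FPKM in aged CR mice and 2.89 to 9.22 in aged AL mice (-1.38, adjusted p = 0.102). In the other direction Epha7 had the smallest adjusted p, with a low of 15.4, a median of 35.4 and a high of 77.6 FPKM in aged CR mice and 11.6 to 24.1 FPKM in aged AL mice (0.95, adjusted p = 0.123). In aged CR replicates 0 to 5 it was 15.4, 45.3, 35.8, 77.6, 34.9 and 21.5 FPKM. The summed dentate gyrus markers, which the region score leaves out, were 13.6, 45.8, 107, 133, 66.9 and 12.8 FPKM there. These sums were 13.0 to 44.8 FPKM in aged AL mice. The part of dentate tissue in the Epha7 values was not tested.

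Whether these passed depended on single libraries and, for Epha8, also on the settings. With all libraries kept, Epha8 was called at a pseudocount of 1 (limma adjusted p = 0.0359) and with the replicate block (0.0381). Without CR replicate 0, 7 genes were called at 15 months: Epha7 higher in CR (log2 difference 1.17, limma adjusted p = 0.0249) and Plxnd1 (-1.32, 0.00967), Efna5, Epha8, Plxna3, Sema4a and Sema4c lower. The calls over all genes rose in the same fit, from 126 to 732 (4.31%, beside 10.1% of the ligands and receptors). Without CR replicate 5, 4 were called (Efna5, Epha8, Plxnd1 and Sema4a; 5.8%, beside 492 or 2.9% of all genes), and without AL replicate 2, Epha8 alone (adjusted p = 0.0429; all genes, 0.401%). CR replicate 0 had the lowest Epha4 (19.2 FPKM) and the highest Plxnd1 and Sema3a (4.10 FPKM) of its group, with a region score of -1.0, whereas replicate 3, with the lowest score, -3.51, had the highest Sema3e, Epha4 (89.6 FPKM), Epha6 (28.4), Epha7, Slit1 (61.3) and Plxna4 (31.4) and the lowest Plxnd1, Efna5, Sema3f (0.160) and Epha8. CR replicate 4 had the highest score of its group, -0.78, together with a high Nrp1 (36.3 FPKM), Slit1 (55.3) and Sema3e. It also stood apart in other regional markers, with the lowest summed CA1 markers of the 22 libraries (96.1 FPKM), the highest summed CA3 markers (96.9 FPKM, beside 24.5 to 44.0 in the rest of its group) and 66.9 FPKM of dentate gyrus markers. Their part in these values was not tested.

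**Figure D5:**
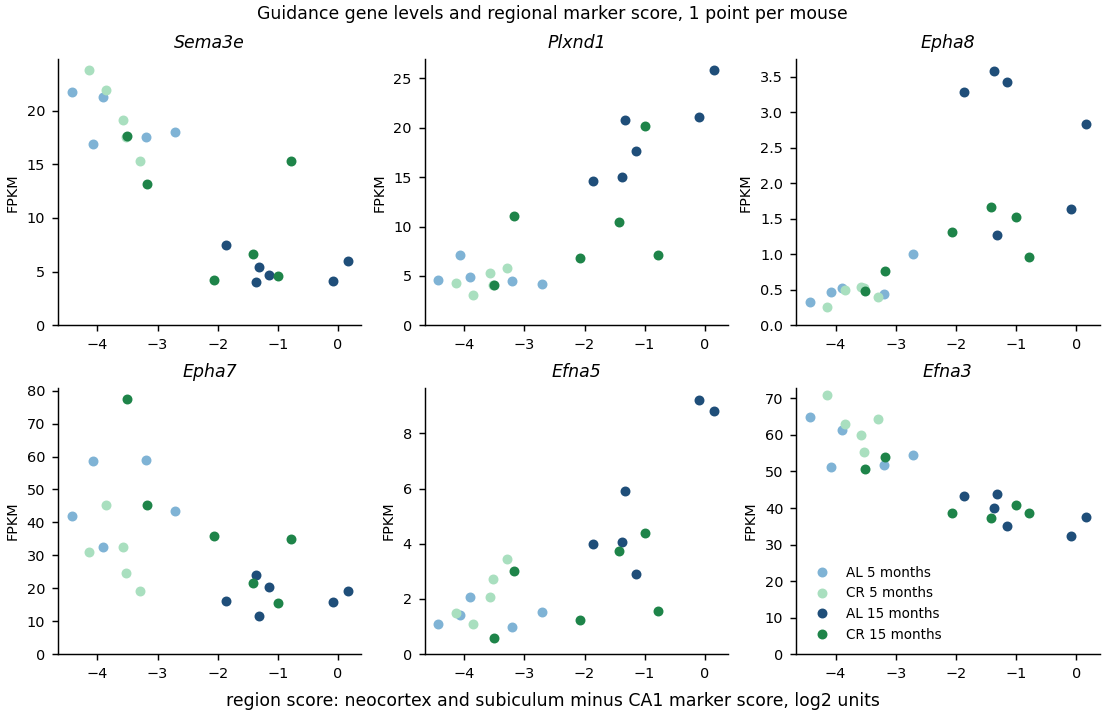
FPKM of 6 genes against the region score of the same library (mean log2 level of neocortex and subiculum markers minus that of CA1 markers), 1 point per mouse, colored by group. Young libraries of both diets lie at scores of -4.43 to -2.71 and aged AL libraries at -1.86 to 0.16, while the aged CR libraries lie on both sides, 1 of them (replicate 3) at -3.51 with 17.6 FPKM of Sema3e and 4.10 FPKM of Plxnd1.

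At 5 months, after the shorter period of restriction, 0 of the 69 were called by limma (beside 0.00% of all genes tested), and 5 had an unadjusted p under 0.05 (7.25%, beside 4.65% of all genes). All 5 were lower in CR (all genes lower, 2.16%): Sema3g, an endothelial semaphorin (log2 difference -0.64), Robo4, an endothelial Robo receptor (-0.50), Sema3c (-0.35), Epha2 (-0.50) and Robo3 (-1.11). The groups did not overlap for Sema3g, Epha2 and Robo3 (4.35%, beside 1.36% of all genes in either direction and 0.830% lower in CR), each with an exact permutation p of 0.00794, the smallest that 5 against 5 libraries allow. Sema3g was 1.16 to 1.78 FPKM in young AL mice and 0.669 to 1.09 in young CR mice. Of the 6 endothelial markers none was called by limma in this comparison and 2 had an unadjusted p under 0.05, and their summed level was 32.2 to 45.0 FPKM in young AL and 27.5 to 43.6 FPKM in young CR mice. Cldn5, which makes up the largest share of that sum (19.0 ± 3.70 FPKM in young AL mice, SD, n = 5), had a log2 difference of 0.04, and Kdr had 0.10. Those of Flt1 (-0.28), Pecam1 (-0.32), Tek (-0.27) and Cdh5 (-0.37) were below 0, as were those of Sema3g and Robo4. The median log2 difference was -0.28 over the endothelial markers and -0.29 over the 4 mural cell markers, all 4 of which were below 0 and 2 of which had an unadjusted p under 0.05. The part of vascular cells in the values of Sema3g and Robo4 was not tested. Robo3 and Robo4 end 554 bases apart on chromosome 9. In CR 5 months replicate 4, the library with the highest summed level of choroid plexus markers (2430 FPKM), Sema3b was 11.2 FPKM, Plxnb2 24.5, Sema3f 3.06 and Ntn4 4.80, each the highest of its group.

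No gene passed the test of the age by diet interaction (0 of 69 and 0.00% of all genes by limma), and 12 of the 69 had an unadjusted p under 0.05 (17.4%, beside 7.66% of all genes). The smallest was that of Epha7 (1.60 on the log2 scale, unadjusted p = 0.00165, adjusted p = 0.608), which was 32.6 to 59.0 FPKM in young AL and 19.2 to 45.3 FPKM in young CR mice. Efna5 had the most negative term (-1.90). A difference between the diets in the change with age was therefore not detectable for single genes with these group sizes.

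A list of 63 co-receptor, adhesion and signal transduction genes of the same pathways was described beside the ligands and receptors. With age in AL mice 21 of them were called (33.3%, beside 20.6% of all genes tested), 10 higher and 11 lower. The largest increases were in Rnd1, whose product binds plexins, from a mean of 5.26 ± 0.740 FPKM (SD, n = 5) to 11.0 ± 3.23 (SD, n = 6; log2 fold change 1.02), in the adhesion gene Flrt1 (0.97) and in Ngef, the exchange factor ephexin that is bound by EphA receptors, from 45.5 ± 5.44 to 84.3 ± 28.1 FPKM (0.83). The largest decreases were in the adhesion gene Dscaml1 (-0.69) and in Draxin, a secreted guidance cue (-0.67). Draxin was low, with a mean of 0.293 FPKM in young and 0.149 FPKM in aged AL mice, near the pseudocount of 0.1. Next came the adaptor gene Nck2, from 23.1 ± 1.90 to 14.7 ± 2.13 FPKM, with Vav3, an exchange factor downstream of Eph receptors (both -0.66). None of the 63 was called between the diets at 15 months, where 13 had an unadjusted p under 0.05 (20.6%, beside 17.1% of all genes). With age in CR mice 2 were called (3.17%, beside 3.36% of all genes): the plexin-binding Farp1 was higher (log2 fold change 0.51) and Crmp1, a mediator of Sema3a signals, lower (-0.41). With the region score in the model 0 of the 63 were called by limma with age in AL mice. An unadjusted p under 0.05 was found for 13 there, and the share over all genes was not determined.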

How the data were processed

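RNA-seq was performed on 22 CA1 libraries in 4 groups (AL and CR mice at 5 and 15 months) prepared with the TruSeq RNA v2 kit. The deposited values are FPKM: the authors aligned reads to mm10 with TopHat, removed duplicates with Picard and estimated FPKM with Cufflinks. The annotation release is not given in the sources used here. No value column was left out. Read counts could not be recovered, since at most 0.403% of low genes in 3 library pairs lay on 1 ratio, so depth per value is unknown and the precision comes from the spread between mice. Groups follow the labels.

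The test covered the 16978 genes whose mean FPKM was 0.1 or more, as log2(FPKM + 0.1); this scale understates changes of low genes. All 4 groups were fitted in 1 model with limma 3.58.1 in R 4.3.3 (eBayes with trend, two-sided), with 5 contrasts and Benjamini-Hochberg adjustment over all genes in each. SE and fold changes are from this fit. For single genes an exact permutation test, two-sided, of mean log2 values was added. The steps were tested on simulated data. Other work used Python 3.11.15, pandas 2.3.3 and matplotlib 3.10.9. Gene positions and overlaps are from GENCODE M21 (GRCm38) and 5′ flanks from RefSeq (GRCm38.p6). All 69 genes had a position. For Slit1, Ntn1, Plxna1, Efnb3, Unc5d, Plxna4, Dcc, Sema6a, Sema3f and Sema3b no flank was used.

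The genes, the 15 marker lists (87 genes) and the list of 63 signaling genes were chosen with earlier results of these data known. The study named several of the same ligands and receptors in a pathway list made from these libraries, which is not independent evidence. That list came from genes called by the authors' own test, Cuffdiff, with age in AL mice and, in the opposite direction, between the diets at 15 months. Sema3e, Plxnd1 and Epha7 were among them, whereas limma as used here called none of the ligands and receptors in that diet contrast. Values in all 4 groups are given for genes called in CR mice with age, in a diet contrast or in the interaction, and, in each of 13 families, for the gene with the smallest p with age in AL mice and the gene with the highest mean. Other genes are named by direction and fold change, and genes close to the threshold in the diet contrasts were named after their values were seen.

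The alternatives were a pseudocount of 1 or 0.01, a mean FPKM of at least 1, no filter, a common median, quantile normalization, no trend, separate fits for each pair of groups, a replicate block, the region score as a covariate, and each library left out in turn. Omission of AL 15 months replicates 4 and 5 together was chosen after seeing the data. Libraries that share a number form 31 pairs across groups, and their deviations from the group means correlated at -0.139 to 0.163, above 0.1 in 2, so the numbers were not taken to pair mice.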

Additional observations from a re-analysis of the deposited data

Results flagged for a closer look

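In 14 of 276 gene and group combinations 1 library stood apart from the rest of its group by Dixon's test, close to the 1 in 20 that chance gives. They came from 10 libraries. Dixon's ratio is the gap to the nearest other library over the range of the group.

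Among semaphorins, Sema3b in AL 15 months replicate 1 was 2.77 FPKM beside 0.451 to 0.855 (ratio 0.667), and Sema3g in the same library was 2.14 beside 0.973 to 1.25 (0.692). Sema3c in CR 15 months replicate 0 was 8.02 FPKM beside 5.55 to 6.03 (0.777). Sema3f in AL 5 months replicate 0 was 1.66 FPKM beside 0.746 to 0.918 (0.748).

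Among plexins, Plxna2 in CR 15 months replicate 2 was low at 11.0 FPKM beside 16.9 to 20.2 (ratio 0.705), and Plxnb1 in AL 5 months replicate 1 was low at 16.5 beside 18.5 to 19.0 (0.798). Plxnd1 in AL 5 months replicate 3 was high at 7.14 FPKM beside 4.24 to 4.92 (0.717), still below every AL library at 15 months.

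Among ephrins, Efna2 in CR 15 months replicate 0 was 5.64 FPKM beside 3.51 to 4.19 (ratio 0.628). Efnb1 in CR 5 months replicate 4 was low at 4.61 FPKM beside 5.83 to 6.15 (0.814), and Efnb2 in AL 5 months replicate 1 was low at 8.17 beside 11.4 to 12.7 (0.747).

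Of the Slit, Robo and netrin genes, Slit2 in CR 5 months replicate 1 was low at 4.42 FPKM beside 6.57 to 7.45 (ratio 0.760), and Robo1 in AL 15 months replicate 0 was low at 4.36 beside 6.51 to 8.0 (0.661). Ntn4 in CR 5 months replicate 4 was high at 4.80 FPKM beside 2.51 to 2.93 (0.766), in the library with the most choroid plexus marker signal. Unc5c in CR 15 months replicate 4 was high at 16.6 FPKM beside 5.49 to 8.22 (0.636). The part of any tissue admixture in these values was not tested.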

How the results depend on the processing

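With age in AL mice the count of 24 called ligands and receptors became 19 to 27 when 1 library was left out, and 22 without AL 15 months replicates 4 and 5. In the latter fit the calls of Sema3f, Sema4c, Plxna4, Nrp1, Efnb3 and Unc5d were lost and other genes were gained. The calls over all genes, 3502 in the main fit, moved as well. They were fewer in the fits with 19 calls and more in the fit with 27. The count of ligands and receptors became 0 with the region score in the model, which does not overlap between the ages in AL mice. All 24 calls were lost there. The log2 fold changes kept their sign, 19 became more than 1.5 times smaller and 5 stayed within 1.5 times. A separate fit of the AL groups gave 28 calls, 17 higher and 11 lower (all genes, 25.4%). The split of higher and lower calls was 13 and 11, and it was 12 and 13 after a common median and 11 and 12 after quantile normalization, which shifted the median of all genes by at most 0.048. The list of 63 signaling genes went from 21 calls to 0 with the region score.

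With age in CR mice the 5 calls became 3 at a mean FPKM of at least 1, 1 in a separate fit of the 2 groups, 3 with the replicate block, 1 with the region score, and 1 to 8 when 1 library was left out (1 without CR 15 months replicate 5, 8 without CR 15 months replicate 3). The calls over all genes, 570 in the main fit, also fell without replicate 5 and rose without replicate 3. They fell in the other fits named here too, except with the replicate block, where they rose. For CR against AL at 15 months the 0 calls became 1 (Epha8) at a pseudocount of 1, 1 (Epha8) with the replicate block, and 0 to 7 when 1 library was left out. For the signaling genes at 15 months, leaving out 1 library gave 0 to 1 calls. The cause of these shifts was not tested, and in AL mice the region score cannot be told apart from age.

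The replicate block moved the calls with age in AL mice to 23 and those at 5 months and in the interaction not at all. Of the 22 libraries, 5 had their closest partner outside the group at their own number. Over the 29 called gene results, 574 of 638 fits with 1 library left out kept the call and 64 lost it, 262 of 317 other fits kept it and 55 lost it, and none changed sign. The 638 fits include those without a library of a group not compared, which enters only through the shared estimate of the spread. Most of the 64 losses came without a library of the groups compared, so the share kept is lower for those libraries alone. The depth behind each FPKM is unknown, so low genes such as Efna4 and Epha8 carry an unknown counting error.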
